A study of Rattus norvegicus with 24 samples.

Results

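The genes described here were 43 genes of hepatic stellate cells and of the extracellular matrix they make, chosen by name from common knowledge of these cells, with earlier results of these data known. All 43 were found by symbol among the 23188 transcripts of a rat liver microarray data set, and for Col1a2 and Col15a1, which had 2 probe sets each, the one with the higher mean signal was used. The genes fell into 6 fibrillar and fibril-associated collagens, 3 chains of collagen VI, 8 basement membrane genes, 7 matrix glycoproteins and proteoglycans, 7 genes of matrix turnover and cross-linking, 4 contractile and cytoskeletal genes, 4 receptors and growth factors, and 4 markers of quiescent stellate cells, pericytes and fibroblasts.

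Hepatic stellate cells lie between the hepatocytes and the endothelium of the sinusoids, store vitamin A as retinyl esters and are the pericytes of the liver. When activated, they take on features of contractile myofibroblasts and deposit fibrillar collagen, which is how fibrosis of the liver begins. The basement membrane proteins, the matricellular proteins and the tissue inhibitors of metalloproteinases on the list are parts of the same matrix or set how fast it is broken down.

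The livers came from male Zucker rats, aged 25 weeks when the feeding began, that were either obese, homozygous for the fa mutation of the leptin receptor (fa/fa), or lean and heterozygous (fa/+). Rats of either genotype ate a basal diet alone (groups LC and OC) or the basal diet with 0.5 g ecdysterone, a steroid of plants and the moulting hormone of insects, per kg (groups LE and OE) for 4 weeks. Each group held 8 rats, kept in groups of 2, and 6 of them had their liver RNA hybridised to 1 Clariom S rat array each. The lean rats carry 1 fa allele, so no group was free of it, and which rats shared a cage is unknown.

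Values were log2 signals, on which a difference of 1 is a 2-fold change, and the median of an array was between 6.51 and 6.61. The mean over 10 markers of hepatocytes, such as Alb and Ttr, was between 17.98 and 18.52 in all rats, so the defining genes of liver were present. For a background level, 1526 olfactory, vomeronasal and taste receptor genes were used, whose mean signals had a median of 4.83 and a 95th percentile of 6.38. Of the 43 genes, 31 had a mean signal above that percentile and 12 below it (Col1a1, Col5a2, Col6a3, Col4a1, Col15a1, Lamb1, Lum, Postn, Lox, Des, Ctgf and Thy1). A signal of one gene is not comparable with that of another, because probes differ in brightness. In a bulk tissue, fewer cells of a type and less RNA per cell cannot be told apart.

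In obese compared with lean rats, 13 of the 43 genes were higher and 1 was lower over both diets. Those that rose were Rgs5, Tagln, Dcn, Sparc, Ctgf, Acta2, Reln, Col3a1, Col4a1, Timp3, Timp1, Fbn1 and Vim, with mean log2 fold changes from 0.44 for Vim to 1.64 for Rgs5, and the one that fell was Col18a1. The other 29 genes did not pass the test, among them Col1a1, Col1a2 and all 3 chains of collagen VI. Col1a1 and Col1a2 encode the chains of the main collagen of scars, and Col1a2 was judged by 1 of its 2 probe sets. The test was limma's, with an adjusted p under 0.05 over all 23188 transcripts, of which 3.56% were called higher and 2.95% lower in the same comparison. The median log2 fold change was 0.10 over the 43 genes and −0.01 over all transcripts, and 33 of the 43 genes had a value above 0 beside 48.7% of all transcripts. No gene was lower in all 12 obese than in all 12 lean rats, as 0.302% of all transcripts were.

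**Figure D1:**
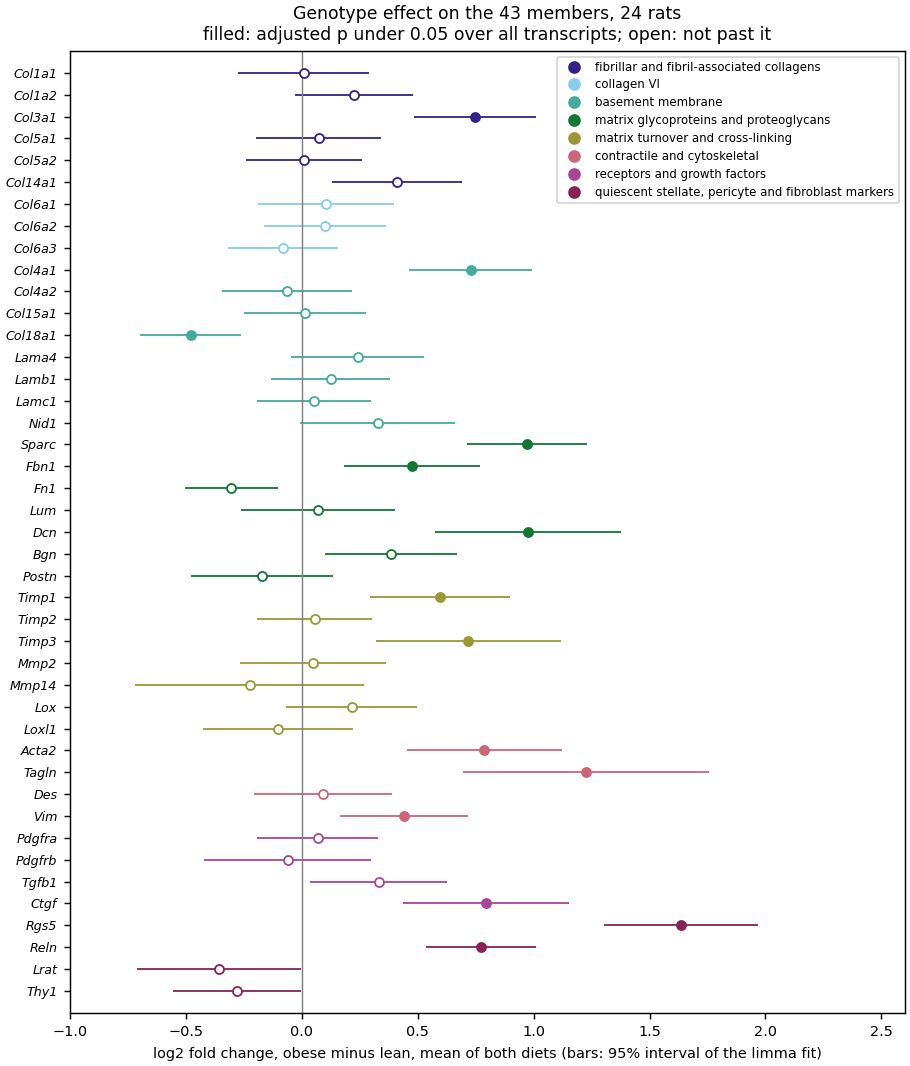
Log2 fold change of obese compared with lean rats, averaged over both diets, for each of the 43 genes (n = 12 rats of each genotype), with the 95% interval of the limma fit as a bar and colours for the 8 groups of genes. Filled points had an adjusted p under 0.05 over all transcripts: 13 lie to the right of 0, from Vim at 0.44 to Rgs5 at 1.64, and Col18a1 lies to the left at −0.48.

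On the control diet alone (OC vs. LC), 6 genes rose and none fell: Col3a1, Col4a1, Sparc, Acta2, Rgs5 and Reln. Of all transcripts, 1.44% were called higher and 1.15% lower. On the ecdysterone diet (OE vs. LE), in rats that OC vs. LC did not use, 6 genes rose and none fell, with Ctgf in the place of Acta2, and the shares of all transcripts were 1.07% and 1.04%. The median log2 fold change of the 43 genes was 0.16 in OC vs. LC and 0.23 in OE vs. LE, while that of all transcripts was 0.00 in both. Values above 0 were found for 27 and 32 of the 43 genes, beside 49.2% and 49.2% of all transcripts. The sign was the same on both diets for 28 of the 43 genes, 22 higher and 6 lower, which is 65.1% beside 61.3% of all transcripts. Of all 23188 transcripts, 6923 were higher and 7283 were lower on both diets. In OC vs. LC all 6 obese rats lay above all 6 lean rats for 6 genes (Col3a1, Col4a1, Sparc, Acta2, Vim and Rgs5) and below them for Fn1, as did 1.05% and 0.97% of all transcripts. In OE vs. LE the groups were apart for Sparc, Rgs5 and Reln, all higher in OE, beside 0.811% of all transcripts, and for no gene lower, beside 0.953%. Sparc and Rgs5 were above every one of the 12 lean rats in all 12 obese rats, as were 0.22% of all transcripts.

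**Figure D2:**
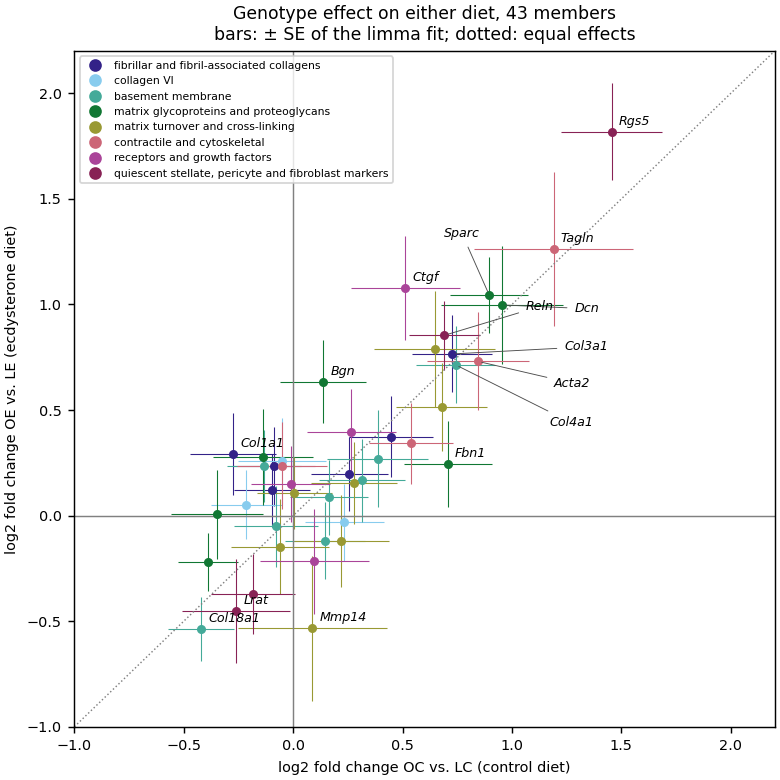
Log2 fold change of OE vs. LE (vertical axis) against that of OC vs. LC (horizontal axis) for the 43 genes, with ± SE of the limma fit as bars, the groups of genes in colour and a dotted line where the effects are equal. The 2 comparisons share no rats; Rgs5 lies at 1.46 and 1.82, Sparc at 0.90 and 1.05, and Col18a1 at −0.42 and −0.54.

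Of the 6 fibrillar and fibril-associated collagens, Col3a1 alone passed the test. Col3a1, the chain of type III collagen, which forms the fine reticulin fibres of the liver, lay between 10.75 and 11.18 in LC (median 11.04), between 10.43 and 11.53 in LE (median 11.15), between 11.27 and 12.06 in OC (median 11.73) and between 11.40 and 12.06 in OE (median 11.85). Every OC rat was above every LC rat, and 5 of the 6 OE rats were above every LE rat. On the log2 scale OC was higher than LC by 0.73 (SE 0.18, adjusted p = 0.023 by limma) and OE higher than LE by 0.77 (SE 0.18, adjusted p = 0.02), a 1.65-fold and a 1.7-fold difference. These calls were lost without any of 5 and any of 4 of the 24 arrays.

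Type I collagen is the most abundant collagen of fibrotic scars and is built from the products of Col1a1 and Col1a2. Col1a1 lay between 6.11 and 6.66 in LC (median 6.44), between 5.91 and 6.66 in LE (median 6.20), between 5.78 and 6.52 in OC (median 6.14) and between 5.88 and 7.36 in OE (median 6.58). The groups overlapped throughout. The mean signal over all rats, 6.33, was just below the 95th percentile of the receptor genes, and the means of LC (6.39) and OE (6.56) were above it. The log2 fold change was −0.28 in OC vs. LC (95% interval −0.67 to 0.12, adjusted p = 0.619) and 0.29 in OE vs. LE (−0.11 to 0.69, adjusted p = 0.589). Col1a2 differed by 0.26 (−0.10 to 0.62) and 0.19 (−0.16 to 0.55), with adjusted p of 0.598 and 0.733. The intervals of both chains include changes in either direction. Col5a1 and Col5a2, chains of the type V collagen that nucleates fibrils, had averaged log2 fold changes of 0.07 and 0.01. Col14a1, a collagen that sits on the surface of fibrils, had 0.41 (SE 0.14, adjusted p = 0.0718), with 5 of 12 obese rats above all lean rats.

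None of the 3 chains of collagen VI, a microfibrillar collagen that anchors cells to the interstitial matrix, passed the test. Col6a1, Col6a2 and Col6a3 had log2 fold changes of −0.05, 0.23 and −0.21 in OC vs. LC and of 0.26, −0.03 and 0.05 in OE vs. LE. The signs of all 3 chains differed between the diets.

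**Figure D3:**
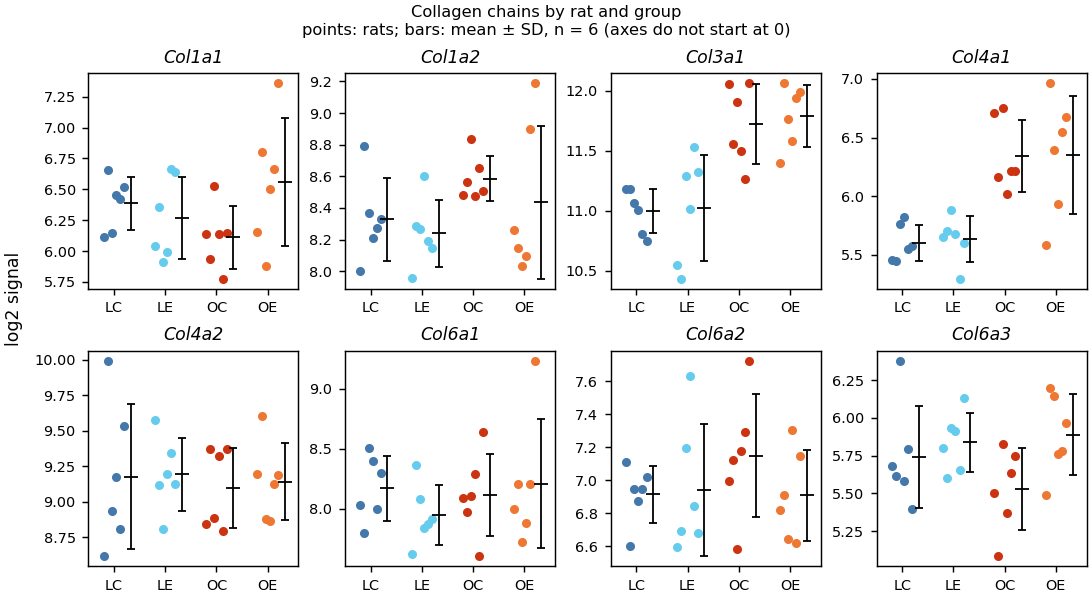
Log2 signals of 8 collagen chains in each rat (points) with the mean ± SD of each group of 6 rats (bars); each panel has its own vertical axis, which does not start at 0. Col3a1 and Col4a1 are higher in OC and OE than in LC and LE, with medians of 11.73 and 11.85 against 11.04 and 11.15 for Col3a1. For both genes OC is apart from LC, but OE overlaps LE. The groups overlap on both diets for Col1a1, Col1a2, Col4a2 and the chains of collagen VI.

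Among the 8 basement membrane genes Col4a1 rose and Col18a1 fell. Col4a1 and Col4a2 encode the α1 and α2 chains that wind together into the usual type IV collagen of basement membranes. They lie head to head on chromosome 16, and in the RefSeq table of the GRCr8 assembly their annotated start sites are 77 bases apart on opposite strands. The windows from 250 bases before to 50 bases after either start share 176 of their 300 bases. That of Col4a1 is printed because 1 chain of the pair moved and the other did not pass the test. It is chr16:84885347-84885646 on the plus strand, with the bases shared with the Col4a2 window in capitals.
Col4a1: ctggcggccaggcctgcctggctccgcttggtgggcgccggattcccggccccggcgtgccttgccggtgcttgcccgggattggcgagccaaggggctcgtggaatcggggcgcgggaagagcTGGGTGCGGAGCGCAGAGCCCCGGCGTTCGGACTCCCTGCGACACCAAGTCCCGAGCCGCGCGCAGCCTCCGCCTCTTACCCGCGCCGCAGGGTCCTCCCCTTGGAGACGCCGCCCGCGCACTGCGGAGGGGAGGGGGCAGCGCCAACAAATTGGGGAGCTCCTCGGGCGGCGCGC

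Col4a1 lay between 5.45 and 5.82 in LC (median 5.56), between 5.30 and 5.88 in LE (median 5.66), between 6.02 and 6.75 in OC (median 6.21) and between 5.59 and 6.96 in OE (median 6.47). No OC rat overlapped LC, and 11 of the 12 obese rats were above all 12 lean rats, the exception being OE replicate 19. The log2 fold change was 0.74 (SE 0.18, adjusted p = 0.0198) in OC vs. LC and 0.71 (SE 0.18, adjusted p = 0.0326) in OE vs. LE. The call in OC vs. LC was lost without any of 2 of the 24 arrays and that in OE vs. LE without any of 8. The mean signals of Col4a1 in LC, LE, OC and OE (5.60, 5.64, 6.34 and 6.35) were all below the 95th percentile of the receptor genes.

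Col4a2 lay between 8.62 and 9.99 in LC (median 9.06), between 8.81 and 9.58 in LE (median 9.16), between 8.80 and 9.38 in OC (median 9.10) and between 8.87 and 9.61 in OE (median 9.16). The 4 groups overlapped, with log2 fold changes of −0.08 in OC vs. LC (95% interval −0.47 to 0.32) and −0.05 in OE vs. LE (−0.45 to 0.34). Across the 12 obese rats the Pearson r of the 2 genes was 0.05.

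Col18a1, which encodes a heparan sulphate proteoglycan collagen that carries endostatin at its end, lay between 10.76 and 11.45 in LC (median 10.97), between 10.63 and 11.29 in LE (median 11.12), between 10.34 and 10.79 in OC (median 10.62) and between 10.09 and 10.93 in OE (median 10.57). The obese rats were lower with overlap, and 6 of 12 lay below all lean rats. The averaged log2 fold change was −0.48 (SE 0.11, adjusted p = 0.004). It was −0.42 (adjusted p = 0.17) in OC vs. LC and −0.54 (adjusted p = 0.0582) in OE vs. LE, so neither diet alone passed.

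The other basement membrane genes did not pass in any comparison. The laminin chains Lama4, Lamb1 and Lamc1 had averaged log2 fold changes of 0.24, 0.13 and 0.05. Nid1, whose product nidogen links laminin with type IV collagen, had 0.33, and Col15a1, a collagen at the border of basement membranes, had 0.01.

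Of the 7 matrix glycoproteins and proteoglycans 3 rose. Sparc, a calcium-binding matricellular protein that binds collagen and is made by stellate and endothelial cells, lay between 12.99 and 13.52 in LC (median 13.38), between 12.87 and 13.50 in LE (median 13.27), between 13.84 and 14.62 in OC (median 14.29) and between 13.86 and 14.95 in OE (median 14.25). The lean and the obese rats did not overlap on either diet. On the log2 scale it was higher by 0.90 (SE 0.18, adjusted p = 0.00305) in OC vs. LC and 1.05 (SE 0.18, adjusted p = 0.000778) in OE vs. LE.

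The promoter window of Sparc, shown because this gene separated the genotypes, is chr10:40038767-40039066 on the minus strand of GRCr8. Capitals in this and the following windows mark matches on either strand to one of 6 short motifs. These were TATAAA (the TATA box), CCAAT (the CCAAT box), GGGCGG (the GC box) and GGAATG (a motif of TEAD factors). The others were TGANTCA (a motif of AP-1) and the strict CArG box of serum response factor (CC, 6 bases of A or T, GG). Only exact matches were marked, so sites that differ from a motif by any base stay in lower case.
Sparc: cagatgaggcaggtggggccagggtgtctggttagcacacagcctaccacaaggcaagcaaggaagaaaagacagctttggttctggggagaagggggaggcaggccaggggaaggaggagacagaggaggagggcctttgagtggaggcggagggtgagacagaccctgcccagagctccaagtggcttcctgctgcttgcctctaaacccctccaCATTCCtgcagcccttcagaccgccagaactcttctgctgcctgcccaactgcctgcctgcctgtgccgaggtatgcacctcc

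Promoter windows were listed for 30 of the 43 genes, 1 of them (Ctgf) under its current symbol Ccn2, and for 10 of the 13 genes that rose. A GC box occurred in 16 of the 30 windows and in 7 of these 10, beside 33.1% of 33469 rat promoters of the same length. GGAATG occurred in 7 of the 30 and in 4 of the 10 (Sparc, Timp1, Acta2 and Ctgf), beside 14.2% of all promoters. TATAAA occurred in 5 and 2 (all promoters 14.2%), CCAAT in 9 and 3 (37.5%), TGANTCA in 2 and 0 (7.33%) and the strict CArG box in 0 and 0 (1.64%). Variant forms of these motifs were not searched for, so a count of 0 does not mean that no such site is present. The matches describe these letters in these windows and no more.

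Dcn encodes decorin, a small leucine-rich proteoglycan that binds collagen fibrils and transforming growth factor β. It lay between 7.77 and 8.65 in LC (median 7.99), between 7.20 and 8.42 in LE (median 8.11), between 8.23 and 10.17 in OC (median 9.17) and between 8.32 and 9.82 in OE (median 8.87). Of the 12 obese rats, 9 were above all lean rats. The averaged log2 fold change was 0.98 (SE 0.20, adjusted p = 0.0015), while the single diets gave 0.95 (adjusted p = 0.0642) and 1.00 (adjusted p = 0.0561).

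Fbn1, the gene of the microfibril protein fibrillin-1, lay between 7.23 and 8.26 in LC (median 7.50), between 7.43 and 7.91 in LE (median 7.78), between 7.73 and 8.69 in OC (median 8.42) and between 7.43 and 8.54 in OE (median 7.89). The rats overlapped, with 6 of 12 obese rats above all lean ones. The averaged log2 fold change was 0.48 (SE 0.14, adjusted p = 0.0412), with 0.71 in OC vs. LC and 0.24 in OE vs. LE. The call was lost when any of 14 of the 24 arrays was left out, and with quantile normalisation (adjusted p = 0.0582).

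Fn1 encodes fibronectin, whose plasma form is made by hepatocytes. It lay between 18.31 and 18.89 in LC (median 18.47), between 18.23 and 18.49 in LE (median 18.40), between 17.93 and 18.31 in OC (median 18.10) and between 17.69 and 18.43 in OE (median 18.24). All 6 OC rats were below all LC rats, yet by limma the log2 fold change of −0.39 had an adjusted p of 0.162, and the averaged one of −0.30 had 0.0592. Bgn, the proteoglycan biglycan, had log2 fold changes of 0.14 in OC vs. LC and 0.63 in OE vs. LE (adjusted p = 0.0979). Lum, the proteoglycan lumican, and Postn, the matricellular protein periostin, had averaged values of 0.07 and −0.17, at signals of the receptor genes.

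Timp1 and Timp3, both inhibitors of the metalloproteinases that degrade matrix, were the 2 of 7 genes of turnover and cross-linking that rose in the averaged comparison. Timp1 lay between 5.66 and 6.71 in LC (median 6.38), between 5.99 and 7.04 in LE (median 6.56), between 6.53 and 7.85 in OC (median 6.95) and between 6.69 and 7.47 in OE (median 7.02). For Timp3 the limits were 6.33 and 7.38 in LC (median 6.96), 6.19 and 7.58 in LE (median 6.80), 6.80 and 8.10 in OC (median 7.66) and 6.98 and 8.93 in OE (median 7.40). Lean and obese rats overlapped for both, with 6 of 12 obese rats above all lean ones for Timp1 and 5 of 12 for Timp3. The averaged log2 fold change was 0.60 (SE 0.15, adjusted p = 0.00985) for Timp1 and 0.72 (SE 0.19, adjusted p = 0.0209) for Timp3, and neither passed on one diet alone.

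Timp2, the third inhibitor on the list, had an averaged log2 fold change of 0.06 (95% interval −0.19 to 0.30). The metalloproteinases Mmp2, a gelatinase, and Mmp14, the membrane-bound enzyme that activates it, had 0.05 (−0.26 to 0.36) and −0.22 (−0.72 to 0.27). Lox and Loxl1, which cross-link collagen and elastin, had 0.22 and −0.10.

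Of the 4 contractile and cytoskeletal genes 3 rose in the averaged comparison and Des did not pass. Acta2, the gene of α-smooth muscle actin and the usual marker of activated stellate cells, lay between 8.11 and 8.71 in LC (median 8.48), between 7.99 and 8.70 in LE (median 8.45), between 8.87 and 9.84 in OC (median 9.30) and between 8.23 and 9.92 in OE (median 9.26). No OC rat overlapped LC, whereas 2 of the 6 OE rats, replicates 19 and 22, lay within the range of LE. The log2 fold change was 0.85 (SE 0.23, adjusted p = 0.0434) in OC vs. LC and 0.73 (SE 0.23, adjusted p = 0.108) in OE vs. LE, and the averaged one was 0.79 (SE 0.16, adjusted p = 0.0021). The call in OC vs. LC was lost when any of 11 of the 24 arrays was left out. The promoter window of Acta2, shown as that of the activation marker, is chr1:241172454-241172753 on the minus strand.
Acta2: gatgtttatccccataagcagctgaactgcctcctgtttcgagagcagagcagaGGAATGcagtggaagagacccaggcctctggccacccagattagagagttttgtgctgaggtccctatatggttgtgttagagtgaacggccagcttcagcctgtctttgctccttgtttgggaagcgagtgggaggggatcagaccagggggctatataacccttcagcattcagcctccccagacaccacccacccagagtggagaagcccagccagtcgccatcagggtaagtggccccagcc

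Tagln, the gene of the actin-binding protein transgelin of smooth muscle and myofibroblasts, lay between 5.87 and 7.48 in LC (median 6.20), between 5.78 and 7.88 in LE (median 6.24), between 6.88 and 8.44 in OC (median 7.44) and between 6.08 and 8.76 in OE (median 7.79). On the control diet 1 LC rat lay within the range of OC, on the ecdysterone diet the ranges overlapped more widely, and 5 of 12 obese rats were above all lean ones. The averaged log2 fold change was 1.23 (SE 0.26, adjusted p = 0.00235), with adjusted p of 0.0838 in OC vs. LC and 0.0679 in OE vs. LE.

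Vim, the gene of the intermediate filament protein vimentin of mesenchymal cells, lay between 9.56 and 10.03 in LC (median 9.84), between 9.39 and 10.52 in LE (median 9.89), between 10.21 and 10.57 in OC (median 10.33) and between 9.50 and 10.80 in OE (median 10.49). The groups were apart on the control diet and overlapped on the ecdysterone diet. The averaged log2 fold change of 0.44 (SE 0.14, adjusted p = 0.0458) lost its call without any of 18 of the 24 arrays, and with median centring (adjusted p = 0.0534). Des, the gene of desmin, which marks stellate cells in rats, had −0.05 and 0.24 on the 2 diets at signals of the receptor genes.

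Smooth muscle of vessels also makes Acta2 and Tagln. None of 7 other markers of it (Myh11, Cnn1, Actg2, Smtn, Lmod1, Synpo2 and Mylk) passed the test in any comparison, and their mean log2 signal ranged from 6.97 to 7.38 in LC rats, 7.21 to 7.35 in LE rats, 7.11 to 7.65 in OC rats and 7.22 to 7.46 in OE rats.

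Acta2 and Tagln went together among the 12 obese rats (Pearson r = 0.80, permutation p = 0.00172, adjusted p = 0.0275 over 16 relations; Spearman rho = 0.73, permutation p = 0.00863, adjusted p = 0.0985). Among the 12 lean rats r was −0.05. Within OC and OE r was 0.80 and 0.84 (n = 6 each), and without the 2 rats farthest from the median of Acta2 it was 0.82, with an adjusted permutation p = 0.0714 over 10 rats. The difference between lean and obese rats was not tested. None of the other 15 relations passed, with r among obese rats of 0.69 for Sparc and Col4a1 (adjusted permutation p = 0.102) and 0.47 for Col1a1 and Col1a2 (adjusted permutation p = 0.386).

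**Figure D4:**
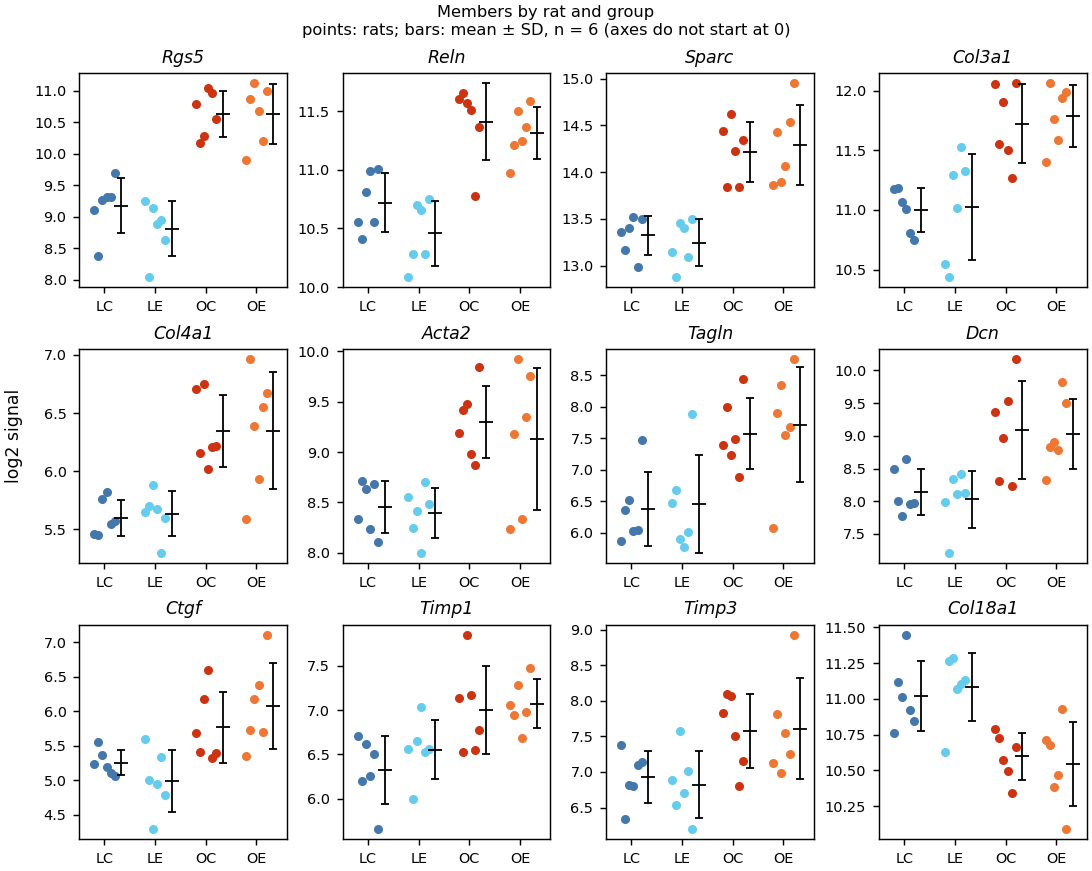
Log2 signals of 12 genes in each rat (points) with the mean ± SD of each group of 6 rats (bars); each panel has its own vertical axis, which does not start at 0. For Rgs5 and Sparc all 12 obese rats are above all 12 lean rats; for Tagln, Timp1 and Timp3 the groups overlap, and Col18a1 is lower in the obese rats, with medians of 10.62 in OC and 10.57 in OE.

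Among the 4 receptors and growth factors Ctgf rose. It encodes connective tissue growth factor, a matricellular protein induced by transforming growth factor β and by stretch. Its signals were between 5.06 and 5.56 in LC (median 5.22), between 4.29 and 5.60 in LE (median 4.98), between 5.32 and 6.60 in OC (median 5.55) and between 5.35 and 7.11 in OE (median 5.95). The means of LC, LE, OC and OE (5.25, 5.00, 5.77 and 6.07) were all below the 95th percentile of the receptor genes. On the control diet 3 of 6 and on the ecdysterone diet 5 of 6 obese rats were above all lean ones. On the log2 scale it was higher by 0.51 (SE 0.25, adjusted p = 0.38) in OC vs. LC and 1.08 (SE 0.25, adjusted p = 0.0154) in OE vs. LE, a call lost without 1 of the 24 arrays. The difference between these effects did not pass (interaction, adjusted p = 1). The promoter window, shown because it held 6 motif matches, is chr1:22624565-22624864 on the minus strand.
Ctgf: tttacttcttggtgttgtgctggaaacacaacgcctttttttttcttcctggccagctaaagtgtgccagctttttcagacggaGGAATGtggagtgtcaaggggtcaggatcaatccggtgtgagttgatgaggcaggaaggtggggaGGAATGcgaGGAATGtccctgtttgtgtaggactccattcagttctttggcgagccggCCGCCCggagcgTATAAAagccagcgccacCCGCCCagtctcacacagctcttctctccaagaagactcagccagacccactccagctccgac

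Tgfb1, the cytokine that drives collagen synthesis in stellate cells, had an averaged log2 fold change of 0.33 (SE 0.14, adjusted p = 0.21). Pdgfra and Pdgfrb, receptors of platelet-derived growth factor, to which stellate cells respond by dividing, had 0.07 (95% interval −0.19 to 0.33) and −0.06 (−0.42 to 0.30).

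Of the 4 markers of quiescent stellate cells, pericytes and fibroblasts, Rgs5 and Reln rose on both diets, while Lrat and Thy1 had values below 0 that did not pass. Rgs5, a regulator of G-protein signalling that marks pericytes, lay between 8.38 and 9.69 in LC (median 9.29), between 8.04 and 9.25 in LE (median 8.91), between 10.17 and 11.05 in OC (median 10.67) and between 9.90 and 11.12 in OE (median 10.78). All obese rats were above all lean rats. The log2 fold change was 1.46 (SE 0.23, adjusted p = 0.000176) in OC vs. LC and 1.82 (SE 0.23, adjusted p = 1.03e-05) in OE vs. LE, that is a 2.74-fold and a 3.53-fold difference. The promoter window, shown because no other of the 43 genes had a larger change, is chr13:84380827-84381126 on the plus strand.
Rgs5: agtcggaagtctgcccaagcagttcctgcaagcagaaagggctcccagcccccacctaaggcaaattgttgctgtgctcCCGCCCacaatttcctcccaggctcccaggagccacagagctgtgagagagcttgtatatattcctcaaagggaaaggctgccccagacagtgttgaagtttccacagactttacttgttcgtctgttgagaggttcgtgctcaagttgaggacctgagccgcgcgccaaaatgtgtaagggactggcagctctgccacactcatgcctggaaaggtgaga

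Reln, whose product reelin is a secreted glycoprotein made in the liver by stellate cells, lay between 10.41 and 11.01 in LC (median 10.68), between 10.08 and 10.75 in LE (median 10.47), between 10.78 and 11.65 in OC (median 11.54) and between 10.97 and 11.59 in OE (median 11.31). OE was apart from LE, and 5 of 6 OC rats were above LC. Its log2 fold changes were 0.69 (SE 0.16, adjusted p = 0.0141) in OC vs. LC and 0.85 (SE 0.16, adjusted p = 0.00266) in OE vs. LE.

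Lrat, the enzyme that esterifies retinol for storage and a marker of quiescent stellate cells, lay between 8.66 and 9.91 in LC (median 9.25), between 9.07 and 9.95 in LE (median 9.17), between 8.26 and 9.81 in OC (median 8.87) and between 8.38 and 9.38 in OE (median 8.80). The groups overlapped, and the log2 fold change was −0.26 (adjusted p = 0.742) in OC vs. LC and −0.45 (adjusted p = 0.472) in OE vs. LE. Thy1, a surface glycoprotein of fibroblasts, had −0.18 and −0.37 at signals of the receptor genes. The averaged log2 fold change of Lrat was −0.36, and 5 of 12 obese rats lay below all lean rats. In the averaged comparison Lrat and Thy1 had an unadjusted p under 0.05 by limma, as had 17.8% of all transcripts, and neither passed after adjustment.

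Further markers of stellate cells that are not among the 43 genes moved in both directions: of 19, 3 rose and 2 fell in the averaged comparison. Lhx2, a transcription factor that holds stellate cells quiescent in mice, rose by 1.03 (SE 0.18, adjusted p = 0.000207), and the globin Cygb rose by 0.67 and the collectin Colec10 by 0.53. Vipr1, a receptor of vasoactive intestinal peptide, and the hedgehog antagonist Hhip fell by 0.49 each. Gfap and Ngfr did not pass, with −0.27 and 0.02. The mean over these 19 ranged from 9.17 to 9.61 in LC rats, 9.12 to 9.50 in LE rats, 9.29 to 9.61 in OC rats and 9.32 to 9.68 in OE rats, so the groups overlapped. None of 8 markers of portal fibroblasts passed, and the smallest p of that list was that of the elastin gene Eln (0.25, adjusted p = 0.209).

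Of 23 genes that build and export collagen, 3 rose and 20 did not pass in the averaged comparison, and none was called on one diet alone. Those 3 were P4hb, the β subunit of prolyl hydroxylase and an abundant disulphide isomerase (0.50, adjusted p = 0.00287), the coat protein gene Sec23a (0.55, adjusted p = 0.0101) and Adamts2, which trims procollagen (0.46, adjusted p = 0.0446). Serpinh1, the collagen chaperone HSP47, had 0.30 (adjusted p = 0.37).

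Of 24 genes of the transforming growth factor β pathway Ltbp4, which stores the latent cytokine in the matrix, rose (0.70, adjusted p = 0.00231) and 23 did not pass, among them the receptors Tgfbr1 (−0.20) and Tgfbr2 (−0.31). In OE vs. LE Ltbp4 rose by 0.80 and Bambi, a decoy receptor, fell by 0.67 (adjusted p = 0.0465). Of the 4 ligands of platelet-derived growth factor receptors Pdgfc fell by 0.66 (adjusted p = 0.0175).

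A list of 16 receptors by which cells hold the matrix held integrins and the discoidin domain receptors Ddr1 and Ddr2. Of these, Itga9 (0.91), Itga1, the subunit of a collagen receptor (0.39), and Itgb1 (0.34) rose. Itga6, the subunit of laminin receptors, fell by 0.96 (adjusted p = 0.000773 by limma). Of 23 proteases and inhibitors 3 rose, namely Mmp12 (1.37), the plasminogen activator Plat (0.71) and Mmp19 (0.41), and Adamts5, an aggrecanase, fell by 1.67 (SE 0.29, adjusted p = 0.000233). Further basement membrane genes that rose were Smoc1 (0.82), Lamb3 (0.51) and Lama2 (0.40), of 18 listed, with none lower. Of 31 other interstitial matrix genes Fbln5, the elastic fibre protein fibulin-5 (0.97, adjusted p = 5.92e-05), and Ogn (0.46) rose and the cross-linking enzyme Loxl4 fell by 0.83.

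Markers of other cells moved with genotype as well. Of 11 markers of red blood cells 8 rose, with Hba-a1 at 1.33, Hbb at 1.17 and Smim1 at 1.06, and the mean over the list ranged from 7.78 to 8.27 in LC rats, 7.88 to 8.41 in LE rats, 8.53 to 9.13 in OC rats and 8.38 to 9.10 in OE rats. The globin gene Hba1 had a mean signal of 18.8. Of 7 markers of lipid-associated macrophages Lgals3 (1.20) and Mmp12 rose, and the mean ranged from 6.64 to 7.18 in LC rats, 6.64 to 7.11 in LE rats, 7.27 to 8.05 in OC rats and 6.95 to 8.41 in OE rats. Of 14 endothelial markers the cadherin gene Cdh5 rose (0.45, adjusted p = 0.0161) and 13 did not pass. Their median averaged log2 fold change was 0.24, beside −0.01 over all transcripts, with 11 of the 14 above 0 and 3 below. The mean over the 14 ranged from 9.47 to 10.00 in LC rats, 9.41 to 10.03 in LE rats, 9.67 to 10.32 in OC rats and 9.72 to 10.24 in OE rats. None of 10 Kupffer cell and macrophage markers (Cd68 0.38, adjusted p = 0.244) and none of 7 cholangiocyte markers (Epcam 0.33, adjusted p = 0.422) passed. Of 10 hepatocyte markers Apoa1 rose by 1.08, Cyp2e1 fell by 1.09 and Cps1 fell by 0.63. What these shifts contribute to the changes of the 43 genes was not tested.

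The 13 genes that rose differed among the rats of a group. OC replicate 17 was the lowest of its group for 9 of them and OE replicate 19 for 10, while OE replicate 24 was the highest for 8. The median SD of the 43 genes was 0.30 in LC, 0.30 in LE, 0.34 in OC and 0.43 in OE, beside 0.30, 0.29, 0.29 and 0.31 for all transcripts. Without OE replicate 24, 3 genes (Sparc, Rgs5 and Reln) passed in OE vs. LE, and without OE replicate 19, 9 did. Without OC replicate 13 or OC replicate 15, 3 genes (the same 3) passed in OC vs. LC.

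Ecdysterone changed none of the 43 genes past the threshold, in lean (LE vs. LC) or in obese rats (OE vs. OC), and 0% of all transcripts passed in either comparison by limma. At an unadjusted p under 0.05, 1 gene in lean rats and 3 genes in obese rats were found, beside 3.51% and 5.7% of all transcripts. The one in lean rats was Bgn, lower by 0.46 on the log2 scale in LE (signals of 12.68 to 13.81, median 13.44, against 13.45 to 14.11, median 13.89, in LC; adjusted p = 1 by limma). In obese rats these were Lum (0.58), Col1a1 (0.45) and Col6a3 (0.36), all with an adjusted p of 0.858 by limma. All 3 genes had a mean signal over all rats below the 95th percentile of the receptor genes.

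For the genes that rose with obesity, the intervals of the ecdysterone effect bound what these arrays could show. Sparc had −0.08 (95% interval −0.44 to 0.29) in lean and 0.07 (−0.29 to 0.44) in obese rats, and Col3a1 had 0.03 (−0.35 to 0.40) and 0.06 (−0.31 to 0.44). Rgs5 had −0.37 (−0.84 to 0.10) and 0.00 (−0.47 to 0.47), and Acta2 had −0.05 (−0.53 to 0.42) and −0.17 (−0.64 to 0.31). For Tagln the interval in obese rats ran from −0.60 to 0.89.

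A genotype effect that differed between the diets was called for none of the 43 genes (interaction, 0% of all transcripts called). Col1a1 had the smallest p: −0.28 on the control and 0.29 on the ecdysterone diet, a difference of 0.57 (SE 0.28, adjusted p = 1 by limma). At an unadjusted p under 0.05 it was the only one of the 43, beside 3.93% of all transcripts.

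**Figure D5:**
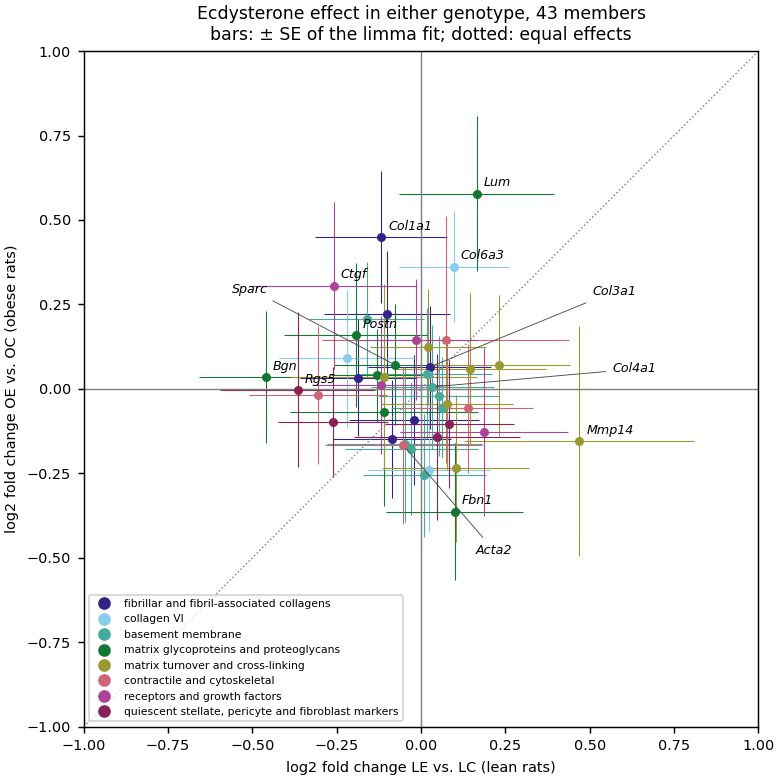
Log2 fold change of OE vs. OC (vertical axis) against that of LE vs. LC (horizontal axis) for the 43 genes, with ± SE of the limma fit as bars and the groups of genes in colour. No gene passed the test; values lie between −0.46 and 0.47 in lean rats and between −0.36 and 0.58 in obese rats, and among the genes that rose with obesity Rgs5 lies at −0.37 and 0.00, Reln at −0.26 and −0.10, Ctgf at −0.26 and 0.31, Fbn1 at 0.10 and −0.36, and Sparc at −0.08 and 0.07.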

How the data were processed

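Each array (Clariom S, rat, from Affymetrix) was hybridised with the liver RNA of 1 rat, with 24 rats in all and a RIN of 7.4 ± 0.6 (SD). The deposited values are log2 signals per transcript, which the authors made by SST-RMA over all arrays at once (Expression Console 1.4). A second deposited table of the same log2 signals differed by at most 0.005. The genome build of the array annotation is not given in the sources used here, and neither slide nor scan date is known. Columns with the authors' own comparisons (means, differences, fold changes and p-values) were not used.

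All 23188 transcripts, 22904 with a symbol, entered 1 limma model (version 3.58.1, R 4.3.3; lmFit and eBayes) with 4 group means, 20 residual and 8.39 prior degrees of freedom. The p-values of a comparison were adjusted by Benjamini and Hochberg over all transcripts, with 0.05 as the threshold. The comparisons were OC vs. LC, OE vs. LE, their mean, LE vs. LC, OE vs. OC and the interaction; those with a group in common are not independent. Relations among rats were tested with 100000 permutations. The steps were tested on simulated data.

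The 43 genes and all other lists were chosen with earlier results of these data known. All 43 genes are named, and those past the threshold in a genotype comparison are given with their values by group. Of other lists, up to 4 genes past the threshold are named by smallest p, or else the gene with the smallest p, except where a gene is not reported here; Alb, Ttr, Serpinh1, Tgfbr1, Tgfbr2, Gfap, Ngfr and Hba1 were added after their values were seen. Promoter windows (250 bases before to 50 after the start) are from RefSeq, GRCr8. The number of arrays limits the precision. Alternatives were the methods' Student test, limma on only the groups compared, median centring, quantile normalisation, a filter on low signals, array weights, trended and robust eBayes, the second table, the mean of all probe sets, and leaving out each array.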

Additional observations from a re-analysis of the deposited data

Results flagged for a closer look

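Among the 172 sets of 6 rats (43 genes in 4 groups), 6 held a rat far from the other 5, by Dixon's test of the gap to the nearest rat at the 95% level; chance alone gives such a rat in about 1 set in 20. Col6a1 was 9.23 in OE replicate 24, against 7.73 to 8.21 in the other OE rats. Col18a1 was 10.6 in LE replicate 7, below the 11.07 to 11.29 of the others. Lum was 3.61 in LC replicate 2 (others 4.38 to 4.80), at signals of the receptor genes. Dcn was 7.20 in LE replicate 8 (others 7.99 to 8.42). Reln was 10.8 in OC replicate 17 (others 11.36 to 11.65), the rat that was the lowest of OC for 9 of the 13 genes that rose. Lrat was 9.95 in LE replicate 9 (others 9.07 to 9.31). No gene had a genotype effect that differed between the diets by the interaction test.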

How the results depend on the processing

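No log2 fold change of a gene called in a genotype comparison changed its sign under any alternative run. By the methods' Student test 2 genes passed in OE vs. LE (Rgs5 and Reln) in place of 6, and 4 in OC vs. LC, of which 3 were among the 6 (Col4a1, Sparc and Rgs5) and 1 was Vim. At the methods' threshold (a fold change over 1.3 and an unadjusted p under 0.05) that test called 16 of the 43 genes in OC vs. LC (2013 of all transcripts), 13 in OE vs. LE (1864), 1 in LE vs. LC (430) and, of 714 transcripts, 0 in OE vs. OC, where the same threshold on the limma fit gave 2. After adjustment it called none of the 43 for ecdysterone. With each array left out in turn, 3 to 8 genes passed in OC vs. LC, 3 to 9 in OE vs. LE, 12 to 15 in the averaged comparison and 0 for ecdysterone in either genotype and for the interaction. Without the 2 rats farthest from the median, the number of relations past the threshold went from 1 (Acta2 and Tagln among obese rats) to 0, as the adjusted permutation p rose to 0.0714, while r went from 0.80 to 0.82. Fits by limma on only the groups compared lost Col3a1 and Col4a1 in OE vs. LE (adjusted p = 0.0538 and 0.0919). They gained Dcn there, and Tagln and Vim in OC vs. LC. Of the genes called, the filter on transcripts with a mean signal under the median of all removed Col4a1 and Ctgf. With it Dcn and Fbn1 were gained in OC vs. LC, and Col18a1, Dcn and Tagln in OE vs. LE. In the averaged comparison it gained Col14a1 and Fn1. Median centring lost Vim and quantile normalisation Fbn1, both in the averaged comparison. Median centring gained Col18a1 in OE vs. LE, and quantile normalisation gained Fn1 in the averaged comparison. Rgs5 passed in every alternative of the 3 genotype comparisons, and Sparc in all but the Student test in OE vs. LE (adjusted p = 0.0591). The causes were not tested. No paired analysis was possible because the replicate numbers run from 1 to 24 and no number is shared between groups. Mean signals below the 95th percentile of the receptor genes limit what can be said of 12 of the 43 genes.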
